A study of Mus musculus with 6 samples.

Results

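The nuclear-encoded subunits of the 5 respiratory chain complexes were followed in mouse Th17 cells cultured with vehicle or with 2-deoxyglucose (2DG). Members were chosen by gene symbol alone: symbols starting with Ndufa, Ndufb, Ndufc, Ndufs or Ndufv (but not Ndufaf), Sdha to Sdhd, symbols starting with Uqcr, Cyc1, Cycs, symbols starting with Cox4 to Cox8, and symbols starting with Atp5. The rule found 88 of the 23203 loci in the table. Of these, 85 are subunits: 38 of complex I, 4 of complex II, 9 of complex III, cytochrome c, 18 of complex IV and 15 of complex V. The other 3 were taken by their prefix but are not subunits. Cox4nb, an older name of Emc8, is a part of the membrane protein insertion machinery of the endoplasmic reticulum, and Atp5s and Atp5sl are not stable parts of the ATP synthase. These 3 are left out of the summaries below.

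Naive CD4 T cells were stimulated for 48 h with plate-bound anti-CD3e at 10 µg/ml and anti-CD28 at 1 µg/ml. All cultures also received IL-6 at 20 ng/ml, TGFb1 at 2.5 ng/ml and IL-23 at 10 ng/ml, which drive differentiation into Th17 cells, the helper T cells that make IL-17. The 3 vehicle cultures received DMSO and the 3 2DG cultures received 2DG at 250 µM, a glucose analogue that is phosphorylated but not carried further through glycolysis and is used to inhibit it. The labels give no strain, age or genotype. Nothing in them ties each library to an animal or culture of its own, so the p-values below reflect how far these libraries scatter, and that scatter may be purely technical.

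Complexes I to IV of the inner mitochondrial membrane pass electrons from NADH and succinate to oxygen, and complexes I, III and IV pump protons as they do so. Complex V, the ATP synthase, lets the protons flow back and makes ATP. Ubiquinone carries electrons from complexes I and II to complex III, and cytochrome c carries them on to complex IV. Some subunits of complexes I, III, IV and V are encoded by mitochondrial DNA and were not analysed here. T cells raise both glycolysis and mitochondrial respiration on activation, and glycolysis feeds the chain with pyruvate and reducing equivalents.

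Levels are the deposited FPKM values (fragments per kilobase of transcript, scaled by the fragments mapped), and read depth is not given by them. Differences are on the log2(FPKM + 1) scale, 2DG minus vehicle, from a limma fit with Benjamini-Hochberg adjustment over the 10228 loci whose mean reached 1 FPKM; a locus was called at an adjusted p under 0.05. The T cell markers Cd3e, Cd3g, Cd4 and Cd5 summed to 510 to 569 FPKM in the vehicle and 486 to 544 FPKM in the 2DG libraries. Of the Th17 markers, Il17a was at 235 to 267 FPKM in the vehicle and 574 to 706 FPKM in the 2DG libraries, Il17f at 1382 to 1650 and 1638 to 2248 FPKM, and Ccr6 at 16.4 to 25.3 and 38.9 to 55.0 FPKM. The sums for B cell, myeloid, NK cell and red cell markers were at most 3.71 FPKM in any library, with Klrb1c, Hbb-bs and Hba-a1 at 0 in all, and the CD8 T cell pair stayed at or below 5.51 FPKM. Correlations of log2 values, over tested loci without the 180 small RNA genes, lay between 0.982 and 0.989 within groups. Across groups they lay between 0.969 and 0.981.

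Most subunits were abundant transcripts. Of the 85 subunits, 78 passed the minimum of 1 FPKM, with a median level over the 6 libraries of 134 FPKM against 14.7 FPKM for all tested loci. The highest was Atp5b, the catalytic beta subunit of complex V, at 1139 FPKM. Next came Cox4i1, a structural subunit of complex IV, at 746 FPKM, then the epsilon subunit Atp5e at 656 FPKM and the alpha subunit Atp5a1 at 606 FPKM. Complex II lay in the narrowest range, from 114 FPKM for Sdha to 160 FPKM for Sdhb. The median level was 110 FPKM in complex I, 139 FPKM in complex II, 139 FPKM in complex III, 207 FPKM in complex IV and 201 FPKM in complex V, over tested subunits.

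The 7 untested subunits were 6 tissue or condition isoforms and 1 of the 3 genes for the c subunit of complex V. Cox8b (heart and muscle), Cox8c and Cox7b2 (testis) were listed at 0 in all 6 libraries. Cox4i2 had a mean of 0.231 FPKM, Cox6a2, the heart and muscle form, 0.362 FPKM and Ndufa4l2, a form induced by low oxygen in other cells, 0.355 FPKM. Their ubiquitous counterparts were high: Cox8a at 295 FPKM, Cox4i1 at 746 FPKM, Cox6a1 at 374 FPKM and Ndufa4 at 318 FPKM. Of the isoforms that did pass the minimum, Cox7a1, the heart and muscle form, stood at 14.8 FPKM beside 217 FPKM for Cox7a2, and Cox6b2, the testis form, at 1.25 FPKM beside 473 FPKM for Cox6b1. The 3 genes Atp5g1, Atp5g2 and Atp5g3, which encode the same mature c subunit, were at 18.0, 0.166 and 436 FPKM.

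Some low levels belonged to genes whose coding sequence occurs again elsewhere. The coding part of each subunit was split into every window of 50 bases, and windows found in the annotated transcripts of another gene were counted. Whether the other gene was a pseudogene was not examined. In 7 subunits at least 99% of windows were shared, and all 7 were listed under 50 FPKM, with a median of 11.4 FPKM. The 7 were Cycs at 1.24 FPKM, Atp5g2 at 0.166 FPKM, Ndufab1, the mitochondrial acyl carrier protein, at 4.86 FPKM, Ndufb4 at 11.4 FPKM, Atp5l at 17.9 FPKM, Atp5g1 at 18.0 FPKM and Cox7c at 31.6 FPKM. Cycs, the only gene here for somatic cytochrome c, shared its windows with 11 other genes. Of the 29 subunits with a smaller shared part, 3 lay under 50 FPKM and the median was 145 FPKM. Of the 49 with none, 9 lay under 50 FPKM and the median was 129 FPKM. The part of the copies in the listed levels was not tested, and the levels and differences of these 7 subunits are uncertain for this reason.

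**Figure D1:**
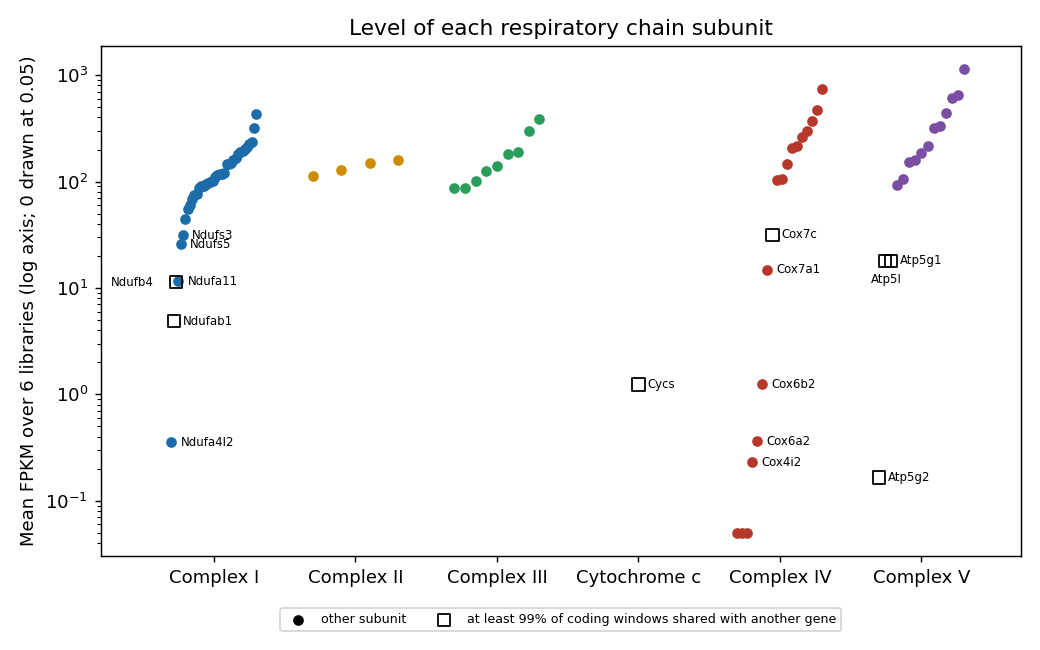
Mean FPKM of the 85 subunits over the 6 libraries, on a log axis, by complex; points drawn at 0.05 are listed at 0 in all libraries. Open squares mark the 7 subunits with at least 99% of coding windows shared with another gene, all of which lie under 50 FPKM.

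With 2DG, 1 of the 78 tested subunits was called lower and none higher. The called subunit was Ndufb11 of complex I. Of all 10228 tested loci, 1.19% were called lower and 1.53% higher, 2.72% in either direction. At an unadjusted limma p under 0.05, 10 of the 78 subunits were lower, beside 902 of the 10228 loci (8.82%). At the same level 2 of the 78 were higher, beside 928 of the 10228 loci (9.07%). All 3 2DG libraries lay below all 3 vehicle libraries in 17 subunits (21.8%), beside 11.8% of all loci, and above them in 2 subunits (2.56%), beside 11.9% of all loci.

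Small differences in 1 direction were common across the complexes. The log2 difference was below 0 in 61 of 78 subunits (78.2%), beside 52.1% of all tested loci, with a median of -0.09 over the subunits and -0.01 over all loci. The subunits differ from the other loci in length. The longest annotated transcript had a median of 1135 bases in tested subunits and 3334.5 bases in tested loci outside small RNA genes. Medians were -0.08 for complex I, -0.07 for complex II, -0.09 for complex III, -0.13 for complex IV and -0.15 for complex V. The differences between complexes were not tested. Subunits of one chain are not independent measurements, and these medians carry no test. Summed over the subunits, the vehicle libraries held 14995, 15303 and 14051 FPKM and the 2DG libraries 13125, 13512 and 14328 FPKM. The highest 2DG sum, that of replicate 3, was above the lowest vehicle sum, also that of replicate 3, so the groups overlapped. The ratio of the mean sums was 0.924, and by complex it lay between 0.920 in complex V and 0.952 in complex II. Fewer cells of a type and less RNA per cell cannot be told apart in bulk libraries.

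**Figure D2:**
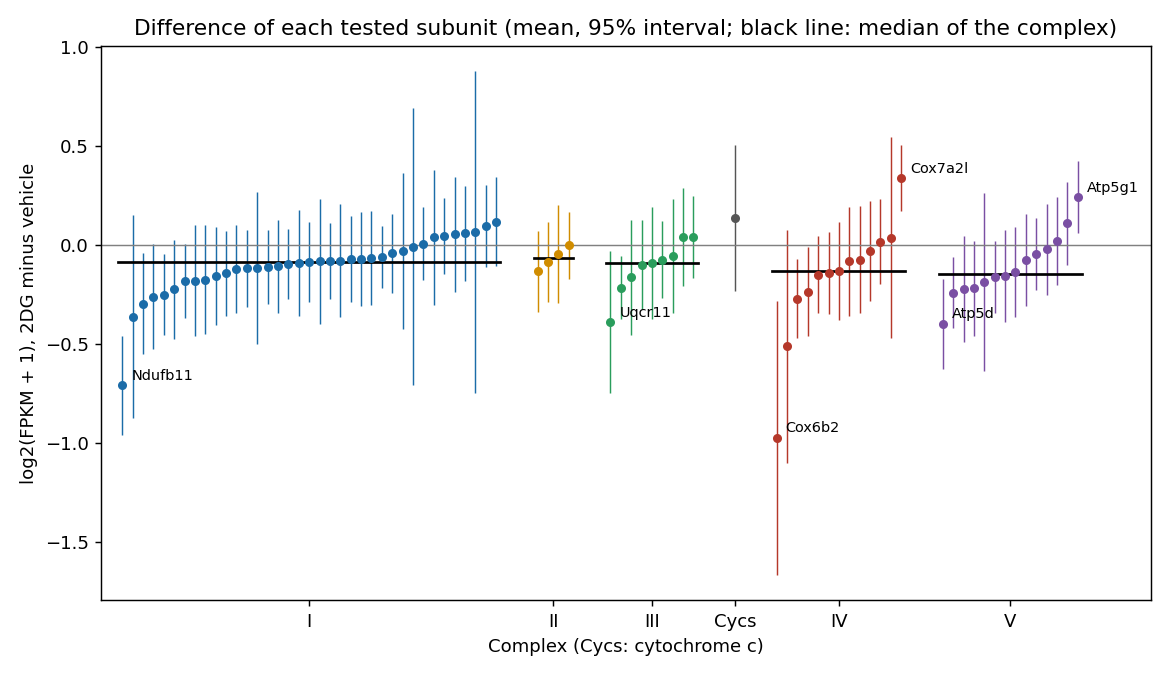
Difference on the log2(FPKM + 1) scale, 2DG minus vehicle, of each of the 78 tested subunits with its 95% interval from limma, sorted within each complex; black lines are medians of complexes. The medians lie between -0.15 and -0.07, and Ndufb11, at -0.71, is the only subunit past the threshold.

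The small shift rested unequally on the libraries. In 38 of 78 subunits the lowest of the 6 libraries was 2DG replicate 1, and in 20 it was 2DG replicate 2, but in 3 it was 2DG replicate 3. The highest library was vehicle replicate 2 in 32 subunits and vehicle replicate 1 in 24, and vehicle replicate 3 in 5. Vehicle replicate 3 thus lay toward the 2DG libraries, and 2DG replicate 3 toward the vehicle libraries. The sample titles carry the numbers 17, 42 and 43 in both groups, for replicates 1, 2 and 3, and nothing says what these mark. Taken by number, the median log2 ratio over the 78 subunits was -0.19 for replicate 1, -0.16 for replicate 2 and 0.05 for replicate 3, while all loci had 0.01, -0.02 and -0.01. Subunits were lower with 2DG in 67, 64 and 30 of 78 cases for the 3 numbers. In 27 subunits (34.6%) all 3 ratios were below 0, beside 22.0% of all loci, and in 4 all 3 were above 0, beside 20.4% of all loci.

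Taken by number, replicate 3 stood apart from the other 2 in each complex. Such ratios depend on which libraries are matched, and the labels do not say that the numbers pair them. For replicates 1, 2 and 3 the median log2 ratio was -0.19, -0.16 and 0.06 in complex I, -0.14, -0.12 and 0.07 in complex II, and -0.24, -0.14 and 0.10 in complex III. In complex IV it was -0.28, -0.18 and 0.05, and in complex V -0.17, -0.19 and 0.01. Without replicate 3 of both groups, 70 of 78 subunits had a difference below 0 (89.7%, median -0.18), beside 51.3% of all loci. Without replicate 1 of both groups it was 47 of 78 (60.3%, median -0.05), beside 53.1% of all loci. With the libraries scaled to equal sums without the small RNA genes, 53 of 78 were below 0 (67.9%, median -0.03), beside 41.5% of all loci (median 0.04). Under quantile normalization 55 of 78 were below 0 (70.5%, median -0.059), beside 51.6% of all loci (median -0.007). With GC and transcript length trends removed, 61 of 78 were below 0 (78.2%, median -0.055), beside 52.3% of all loci (median -0.009). Leaving out both libraries of a number and removing these trends were chosen after seeing the data.

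**Figure D3:**
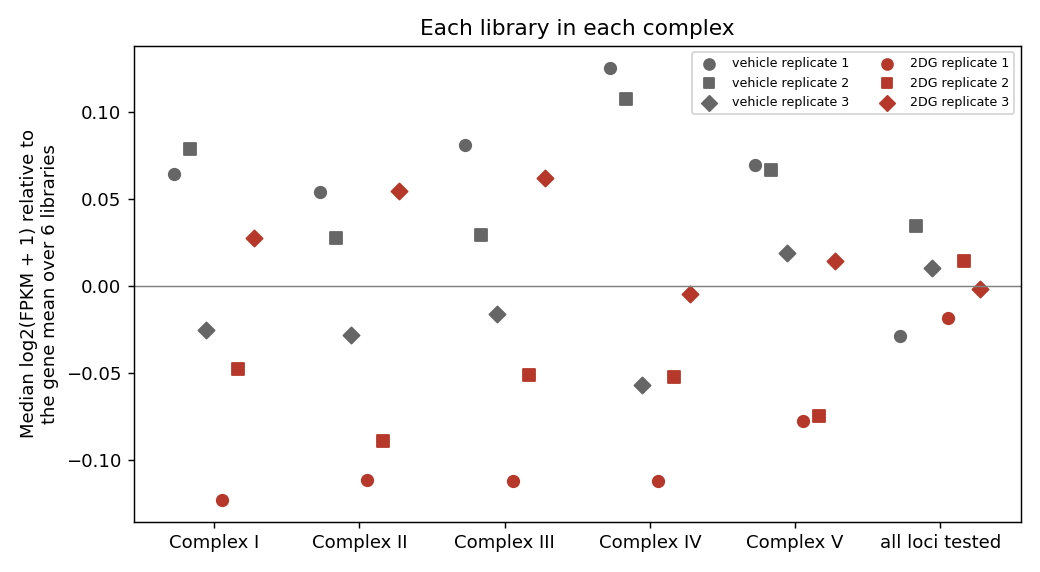
Median over the tested subunits of each complex of log2(FPKM + 1) relative to the gene's mean over the 6 libraries, for each library; grey, vehicle; red, 2DG; the last column shows all 10228 tested loci. Vehicle replicates 1 and 2 lie above 2DG replicates 1 and 2 in each complex, while 2DG replicate 3 lies above vehicle replicate 3 in complexes I, II, III and IV and below it in complex V.

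In complex I, the NADH dehydrogenase, 29 of 37 tested subunits had a difference below 0 and 1 was called. Ndufb11 is an accessory subunit of the proton-pumping membrane arm. Its values were 105, 122 and 101 FPKM in the vehicle libraries and 59.8, 67.0 and 72.6 FPKM in the 2DG libraries. The groups did not overlap: the highest 2DG library and the lowest vehicle library were both replicate 3. Ndufb11 fell from 109 ± 11.1 to 66.5 ± 6.42 FPKM (mean ± SD, n = 3 libraries each), a log2 difference of -0.71 (SE 0.11, 95% interval -0.96 to -0.46, limma adjusted p = 0.019). The call was lost, with the same direction, when any library other than 2DG replicate 3 was left out, with limma adjusted p between 0.059 and 0.088. It was also lost without both libraries of any 1 replicate number, with adjusted p between 0.10 and 0.18.

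Ndufb11 lies on chromosome X, positions 20615326 to 20617619 on the minus strand of GRCm38. Its first exon overlaps that of Rbm10, an RNA-binding splicing regulator on the opposite strand, with annotated starts 116 bases apart. Whether the counting used strand is not given in the sources used here, so reads from the overlap cannot be assigned with certainty. Rbm10 itself was at 18.5 ± 2.99 and 15.0 ± 1.19 FPKM (log2 difference -0.28, limma adjusted p = 0.30). Of the coding windows of Ndufb11, 20.3% occur in 1 other gene. None of the other Ndufb subunits was called, and the median over the 10 of them, Ndufb11 included, was -0.13.

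The 7 nuclear core subunits of complex I carry the flavin, the iron-sulphur clusters and the ubiquinone site. None was called, and their median difference was -0.07. Ndufv1, which binds NADH and the flavin, had 106, 108 and 102 FPKM under vehicle and 86.3, 81.8 and 97.6 FPKM under 2DG. These groups did not overlap, but the difference of -0.25 (SE 0.09) missed the threshold (limma adjusted p = 0.19). Ndufv2 gave a difference of 0.01, Ndufs1 -0.08, Ndufs3 0.06, Ndufs7 -0.11 and Ndufs8 -0.07, with limma adjusted p between 0.54 and 0.98.

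Accessory subunits showed the widest scatter. Ndufs5 was at 28.3 ± 1.43 and 23.0 ± 3.03 FPKM (log2 difference -0.30, limma adjusted p = 0.21), with 72.5% of its coding windows shared. Ndufv3, a small subunit of the NADH-binding module, was at 264 ± 67.0 and 204 ± 44.1 FPKM (-0.36, limma adjusted p = 0.45), and its groups overlapped. Without vehicle replicate 2 the difference of Ndufv3 was -0.16, and without 2DG replicate 1 it was -0.17. Ndufa4, named for complex I but now assigned to complex IV, was at 345 ± 16.4 and 290 ± 37.5 FPKM (-0.26, limma adjusted p = 0.29). Ndufa3, the most abundant at 427 FPKM, differed by -0.12 with vehicle values from 377 to 556 FPKM. At the upper end stood Ndufb2 with a difference of 0.12 and Ndufa6 with 0.10, neither past the threshold (limma adjusted p = 0.58 and 0.63).

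Complex II, succinate dehydrogenase, is the 1 complex wholly encoded in the nucleus and also an enzyme of the citric acid cycle. No subunit was called. Sdha, the flavoprotein that oxidises succinate, read 117, 112 and 112 FPKM under vehicle and 108, 119 and 114 FPKM under 2DG. The 2DG values spanned the vehicle values, and the difference was -0.002 with a 95% interval from -0.17 to 0.17. Sdhb, the iron-sulphur subunit, was at 164 ± 9.97 and 155 ± 10.1 FPKM (log2 difference -0.08). The membrane anchors Sdhc and Sdhd differed by -0.05 and -0.13, with 131 ± 10.9 and 127 ± 14.1 FPKM for Sdhc and 155 ± 10.0 and 142 ± 9.91 FPKM for Sdhd. Groups overlapped in each of the 4 genes (limma adjusted p between 0.49 and 0.996).

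In complex III, which passes electrons from ubiquinol to cytochrome c, 7 of 9 subunits had a difference below 0 and none was called. Cyc1 encodes cytochrome c1, the haem subunit that hands electrons to cytochrome c. It stood at 95.7, 91.3 and 95.6 FPKM under vehicle and at 80.7, 79.0 and 83.2 FPKM under 2DG. The groups did not overlap and the spread within each was small, but the difference of -0.22 (SE 0.07) missed the threshold (limma adjusted p = 0.15). Uqcr11, a small structural subunit, was at 187, 249 and 187 FPKM and at 132, 173 and 168 FPKM. Its groups did not overlap either, with a difference of -0.39 and a wide interval from -0.75 to -0.03 (limma adjusted p = 0.24). The Rieske iron-sulphur protein Uqcrfs1 differed by -0.16, the core proteins Uqcrc1 and Uqcrc2 by -0.10 and -0.07, and the hinge protein Uqcrh by -0.09. Uqcr10, the most abundant at 391 FPKM, and Uqcrb both differed by 0.04.

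Cytochrome c itself, Cycs, was at 1.14 ± 0.318 and 1.34 ± 0.0399 FPKM (log2 difference 0.14, limma adjusted p = 0.70), a level that carries the limit of its many copies given above.

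In complex IV, cytochrome c oxidase, 10 of 13 tested subunits had a difference below 0 and none was called. All 3 2DG libraries lay below all 3 vehicle libraries in 5 subunits (38.5%), beside 11.8% of all loci. They lay above them in 1 subunit (7.69%), beside 11.9% of all loci. The 5 include Cox6b2, at 1.25 FPKM. In the other complexes the share lying below was 16.2% in I, 0% in II, 22.2% in III and 28.6% in V. Cox7a2l, which is related to Cox7a2 and links complexes III and IV into a supercomplex, had the highest difference of all tested subunits. It read 91.9, 91.5 and 89.8 FPKM under vehicle and 109, 119 and 118 FPKM under 2DG. The vehicle libraries lay within a few FPKM of each other and all 3 2DG libraries stood above them. The means were 91.1 ± 1.13 and 115 ± 5.39 FPKM, a log2 difference of 0.34 (SE 0.07, 95% interval 0.17 to 0.50) that missed the threshold (limma adjusted p = 0.057). It passed under 5 alternative settings, 1 of them added after seeing the data, with limma adjusted p between 0.021 and 0.045. It moved away from the threshold with eBayes without a trend (adjusted p = 0.082) and when any 1 library was left out (adjusted p between 0.11 and 0.15). Of its coding windows 54.1% occur in 1 other gene. The gene lies on chromosome 17, positions 83501918 to 83517330 on the minus strand of GRCm38.

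Most of the other widely expressed subunits of the oxidase had differences below 0, while Cox6c (0.02) and Cox7c (0.04) lay just above it. Cox5a, at the matrix face, was at 282, 308 and 264 FPKM under vehicle and 232, 235 and 239 FPKM under 2DG. No 2DG library reached the vehicle range, and the difference was -0.27 (SE 0.08, limma adjusted p = 0.15). Cox6b1, which bridges the dimer on the outer face, was at 512 ± 44.4 and 434 ± 19.3 FPKM (-0.24, limma adjusted p = 0.26). Cox6a1 differed by -0.14, Cox8a by -0.15 and Cox5b by -0.13. The abundant Cox4i1 read 847, 780 and 673 FPKM under vehicle and 688, 717 and 771 FPKM under 2DG, with overlapping groups and a difference of -0.07. Cox7a2, the ubiquitous partner of Cox7a1, differed by -0.08 and Cox7b by -0.03.

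Minor isoforms of complex IV gave the largest differences in size. Cox6b2 was at 2.37, 1.55 and 1.87 FPKM under vehicle and was listed at 0, 1.23 and 0.454 FPKM under 2DG. The groups did not overlap, but the difference of -0.97 (SE 0.29) missed the threshold (limma adjusted p = 0.15). At this low level the size depends on the pseudocount: the difference was -2.25 with a pseudocount of 0.1, and -0.59 without replicate 1 of both groups. Cox7a1 was at 13.7, 22.9 and 15.9 FPKM and at 8.08, 14.6 and 13.6 FPKM, with overlapping groups (-0.51, limma adjusted p = 0.35). The difference was -0.27 without 2DG replicate 1 and -0.31 without vehicle replicate 2. Cox7c, with all of its coding windows shared, differed by 0.04 with vehicle values between 25.4 and 42.6 FPKM.

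In complex V, 11 of 14 tested subunits had a difference below 0 and none was called. In the catalytic F1 head, Atp5d, the delta subunit of the central stalk, had the lowest difference of the complex. It was at 253, 270 and 221 FPKM under vehicle and 179, 195 and 189 FPKM under 2DG. The groups did not overlap, and the difference of -0.40 (SE 0.10, 95% interval -0.63 to -0.17) missed the threshold (limma adjusted p = 0.084). Exons of Atp5d overlap those of Cbarp on the other strand. Atp5b read 1208, 1180 and 1188 FPKM and 1059, 1035 and 1165 FPKM (-0.14, limma adjusted p = 0.53), with a narrow gap between the groups. Atp5a1 differed by -0.02, Atp5c1, the gamma subunit, by 0.02 and Atp5e by -0.08, each with overlapping groups.

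The peripheral stalk holds the head still against the turning rotor. Atp5h, its d subunit, was at 111, 123 and 112 FPKM under vehicle and 98.8, 101 and 92.7 FPKM under 2DG. Groups did not overlap, with a difference of -0.24 (SE 0.08, limma adjusted p = 0.16). The b subunit Atp5f1 differed by -0.16, Atp5o, the oligomycin-sensitivity protein, by -0.22 and Atp5j by 0.11. Of the small membrane subunits that shape the dimer, Atp5k differed by -0.22 and Atp5l by -0.19, and Atp5j2 by -0.05.

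The genes of the c ring lay on opposite sides of 0. Atp5g3, by far the most abundant, was at 459 ± 12.7 and 413 ± 43.0 FPKM (-0.16, limma adjusted p = 0.47). Atp5g1 read 15.9, 16.7 and 16.7 FPKM under vehicle and 19.1, 18.9 and 20.9 FPKM under 2DG. All 2DG values stood above all vehicle values, and the difference of 0.24 (SE 0.08) missed the threshold (limma adjusted p = 0.16). Of the coding windows of Atp5g1, 99.7% are shared with other genes.

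**Figure D4:**
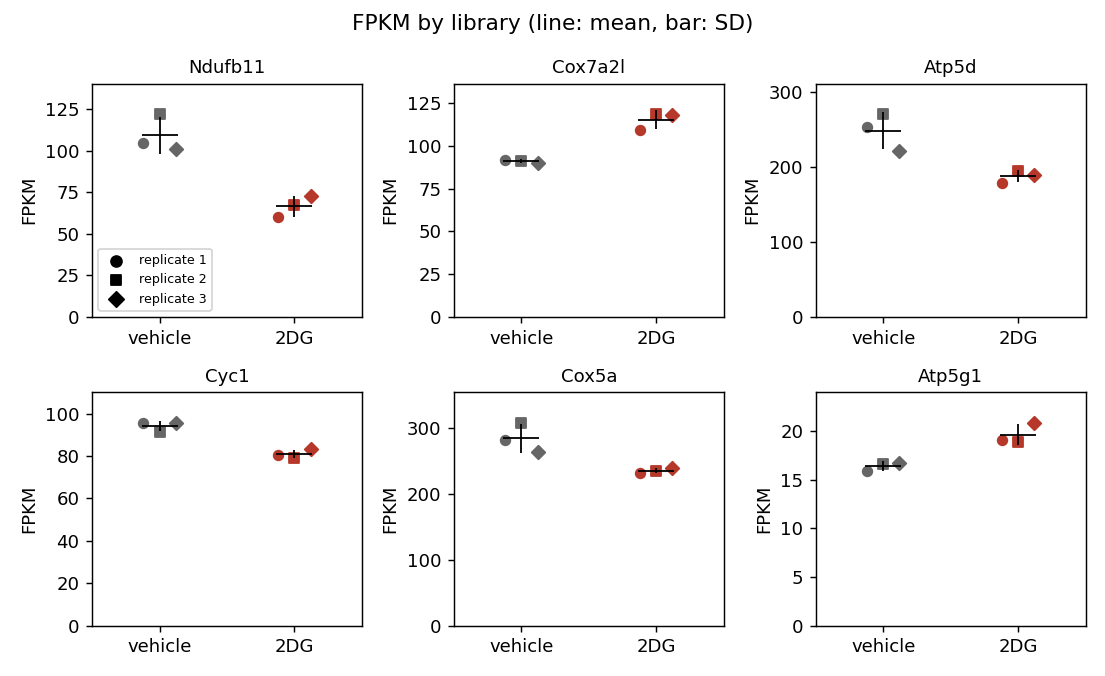
FPKM by library for 6 subunits, with the mean and SD of each group (n = 3) and a marker for each replicate number; each vertical axis starts at 0. The 6 were taken from the subunits whose groups do not overlap: Ndufb11, Atp5d, Cyc1 and Cox5a lie lower with 2DG, Cox7a2l and Atp5g1 higher. They do not show the balance of directions. Of the 78 tested subunits, 17 lay wholly lower (21.8%, beside 11.8% of all loci) and 2 wholly higher (2.56%, beside 11.9%).

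Genes that build, regulate or feed the chain were read from the same fit, and none of them was called in either direction. For the counts below, 52.1% of all tested loci had a difference below 0. Of the 15 tested complex I assembly factors, 11 had a difference below 0 (median -0.04), and of the 23 for complex IV, 13 (median -0.01). The medians for the 4 factors of complex II, the 7 of complex III and the 6 assembly and regulatory genes of complex V were -0.05, -0.02 and -0.10. Usmg5, a small protein bound to the ATP synthase, was at 94.2 ± 2.49 and 73.5 ± 6.14 FPKM (-0.36, limma adjusted p = 0.074). The 16 tested genes of cristae and inner membrane organisation had a median of -0.04, with 13 below 0.

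Regulators of respiratory genes and mitochondrial DNA centred on 0, with 9 of 20 below it and a median of 0.01. Nrf1 (29.0 and 27.6 FPKM), a transcription factor for many nuclear respiratory genes, differed by -0.07, and Tfam, which packages mitochondrial DNA, by -0.01. Above 0 lay Gabpa (0.15), Gabpb1 (0.20), Gabpb2 (0.12) and Yy1 (0.16), with limma adjusted p between 0.39 and 0.66. The coactivator Ppargc1a was listed at 0 in all libraries, and its relative Ppargc1b was at 0.745 and 0.764 FPKM. Other enzymes that pass electrons to ubiquinone were below 0 in 7 of 7 tested genes (median -0.20), beside 52.1% of all loci. The differences ranged from -0.61 for Gpd2 to -0.03 for Dhodh, and Prodh lay near the minimum, at 1.24 and 0.764 FPKM. Gpd2 is the mitochondrial glycerol-3-phosphate dehydrogenase that carries electrons from a product of glycolysis into the chain. It was at 24.8, 18.8 and 18.9 FPKM under vehicle and 13.1, 11.9 and 14.7 FPKM under 2DG. The groups did not overlap, and the difference of -0.61 (SE 0.13) missed the threshold (limma adjusted p = 0.062). Usmg5 and Gpd2 were singled out after their values were seen, as were Dhodh, Prodh, Nrf1, Tfam, Gabpa, Gabpb1, Gabpb2, Yy1 and the 2 coactivators.

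Promoters were searched for motifs of factors known to bind nuclear respiratory genes, using RefSeq promoters (GRCm38.p6, 250 bases before to 50 after the start), found for 69 of the 85 subunits. The motifs were NT with GCGC on either side for NRF1, CCGGAAG for the ETS family, to which GABPA belongs, and AAGATGGC for YY1, on both strands. No motif contains another, and a promoter can hold more than 1. NRF1 letters were in 24.6% of subunit promoters, against 13.1% of the 8082 tested protein-coding genes and 7.17% of all 17492. ETS letters were in 23.2%, against 23.1% and 12.9%, and YY1 letters in 14.5%, against 6.04% and 3.57%. The YY1 motif was in 7 of 33 complex I promoters and 3 of 14 in complex V. It was in 0 of 3 in complex II, 0 of 5 in complex III and 0 of 13 in complex IV, and these small counts were not compared by a test.

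Medians of the 2DG difference lay close together in subunits with and without a motif. The median was -0.13 for the 16 tested subunits with the NRF1 motif and -0.10 for the 50 without. It was -0.14 with and -0.10 without the ETS motif, and -0.10 with and -0.11 without the YY1 motif. The 1 promoter searched for Ndufb11 and the 1 for Cox7a2l held none of the 3. The RefSeq start used for Cox7a2l lies inside the GENCODE span given above for that gene, not at its outer end. The bases before that outer end were not searched. The stretches below show 1 promoter with the NRF1 motif, 2 with the ETS motif and that of Cox7a2l without any, all read 5′ to 3′ on the strand of the gene and with the motif in capitals. They lie at chr4:123718259-123718300 (minus strand, Ndufs5), chr10:80406865-80406903 (minus strand, Uqcr11), chr2:174464181-174464219 (minus strand, Atp5e) and chr17:83514334-83514433 (minus strand, Cox7a2l).
Ndufs5: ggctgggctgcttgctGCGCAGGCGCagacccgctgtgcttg
Uqcr11: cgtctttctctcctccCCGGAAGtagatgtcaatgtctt
Atp5e: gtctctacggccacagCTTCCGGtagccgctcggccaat
Cox7a2l: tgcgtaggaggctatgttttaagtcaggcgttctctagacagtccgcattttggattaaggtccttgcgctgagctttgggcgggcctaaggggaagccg
The motif starts 98 bases before the annotated start in Ndufs5, 66 in Uqcr11 and 102 in Atp5e. A match describes the letters only and does not show binding.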

How the data were processed

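RNA-seq values of 6 libraries were used. The authors deposited FPKM values in 1 table, per the file headers, with a row for each locus. Per the submitters' processing notes, the build was mm10 and the tools were Cuffdiff 2.2.1.3, Cuffnorm 2.2.1.1, Cufflinks 2.2.1.0 and TopHat2 2.1.0. For the annotation, strand setting and scaling, nothing is stated in those sources. The 75th percentiles lay between 10.9 and 11.6 FPKM, so the libraries were on a like scale at that percentile as deposited. Their sums over tested loci were less alike, from 1468500 FPKM in vehicle replicate 1 to 1957710 FPKM in vehicle replicate 2. FPKM values of genes that share reads with copies are uncertain, and the depth is unknown.

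Tests used limma 3.58.1 in R 4.3.3 (lmFit, eBayes with trend, group as the only term, two-sided) on log2(FPKM + 1) of the 10228 loci whose mean reached 1 FPKM, with Benjamini-Hochberg adjustment and a threshold of 0.05. The pseudocount of 1 understates the change of low genes. With 3 against 3 libraries an exact permutation test cannot go below 0.1. The code was tested on simulated data. No pair of libraries shared more than 0.479% identical values. Coordinates and coding windows come from GENCODE M21 on GRCm38. Python 3.11.15 with matplotlib 3.10.9 made the figures.

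Members, lists and tests were chosen with earlier results of these data known. Genes named are those past the threshold; per complex the 2 highest and 2 lowest differences, the 3 of smallest p and the 2 most abundant; Cyc1, Cycs, complex II, the complex I core and isoform sets. Other members are named after their values were seen. The values of 1 member and 1 marker are not reported here. Alternatives were the pseudocount, filter, scaling, replicate block, eBayes settings and leaving out libraries. Removing GC and length trends by loess and leaving out both libraries of a number were added after seeing the data.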

Additional observations from a re-analysis of the deposited data

How the results depend on the processing

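The number of loci called in all moved most. Without a filter 100 loci were called higher and 65 lower. These calls numbered 247 and 199 under robust eBayes, 262 and 214 when small RNA genes were left out, and 248 and 201 after GC and length trends were removed. Leaving out 1 library gave 37 to 87 higher and 14 to 55 lower calls, and leaving out both libraries of number 1, 2 or 3 gave 11, 6 and 29 higher and 6, 5 and 21 lower calls. With the replicate block 57 and 44 loci were called, and 0 subunits lower (Ndufb11 adjusted p = 0.060 from limma). Deviations of same-numbered libraries correlated at -0.05, 0.38 and -0.20 over tested loci outside small RNA genes. Over the tested subunits they correlated at 0.29, 0.37 and -0.10. Among libraries of unlike number, vehicle replicate 1 with 2DG replicate 3 gave 0.38 over the same loci. Vehicle replicate 3 with 2DG replicate 1 gave 0.29 there. For these reasons, and because no label says what the shared title numbers mark, the numbers were not taken as pairing the libraries. Subunits called lower ranged from 0 to 1 over the settings that leave libraries out. Subunits called higher became 1 (Cox7a2l) under quantile normalization, equal sums, robust eBayes, small RNA genes left out and GC and length trends removed. Subunits with a difference below 0 ranged from 47 to 70 of 78 when libraries were left out. The median over all loci was 0.041 with equal sums and -0.027 with equal medians, and -0.023 to 0.0029 when libraries were left out. The medians of the subunits and of complexes I, III, IV and V stayed below 0 in every setting run, and that of complex II was 0.01 without replicate 1 of both groups. Of the named members, 13 changed sign, in 38 pairs of member and setting, all uncalled. Under quantile normalization they were Atp5e (0.0067), Cox4i1 (0.025) and Sdha (0.016), under equal sums Sdha (0.054) and Sdhc (0.0099), and under equal medians Ndufv2 (-0.013). With GC and length trends removed they were Cox4i1 (0.0036), Cox7c (-0.0063) and Ndufv2 (-0.018). Without replicate 1 of both groups they were Cox4i1 (0.038), Cox7a2 (0.070), Ndufs8 (0.0071), Sdha (0.053), Sdhc (0.073) and Uqcrh (0.0050), without replicate 2 Atp5e (0.0038), and without replicate 3 Cox7c (-0.23), Ndufs3 (-0.027), Ndufv2 (-0.0028), Uqcr10 (-0.046) and Uqcrb (-0.027). Leaving out single libraries gave -0.17 to 0.00092 for Cox4i1, -0.17 to 0.032 for Cox7a2, -0.098 to 0.27 for Cox7c, -0.23 to 0.053 for Ndufa3, -0.13 to 0.0083 for Ndufs8, -0.039 to 0.043 for Ndufv2, -0.032 to 0.033 for Sdha, -0.13 to 0.022 for Sdhc, -0.0053 to 0.080 for Uqcr10 and -0.051 to 0.13 for Uqcrb. By over 1.5 times, without a change of sign, Uqcr11 moved to -0.25 without vehicle replicate 2, Ndufs5 to -0.20 without 2DG replicate 1, Ndufa4 to -0.16 without 2DG replicate 2 (-0.12 without both libraries of that number) and Cox6b1 to -0.14 under quantile normalization. The cause of these changes was not tested. Without subunits whose exons overlap another gene the median over the other 51 was -0.10, and without those that share windows it was -0.09 over 43. Depth is unknown, so no interval for counting error can be given.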
